A study of Mus musculus with 6 samples.

Results

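The keratins of simple epithelium and their partner plakins were described across the 6 colon libraries of the series. They were a fixed list of 8 genes, the 6 keratins Krt7, Krt8, Krt18, Krt19, Krt20 and Krt23 and the 2 plakins Ppl and Evpl. The list was drawn up by gene name, but with earlier results of these data known. The count tables listed 24517 genes, and all 8 were among them and among the 16347 genes that passed the filter on low counts. RNA had been taken from mouse colon, with 3 NSD2fl/fl and 3 NSD2∆IE libraries. NSD2fl/fl mice carried floxed alleles of the histone methyltransferase gene Nsd2 with no recombinase named for them, and NSD2∆IE mice lacked it in the intestinal epithelium through Villin-Cre, which acts in gut epithelial cells and leaves the other cells of the wall unrecombined. By the study's methods the mice were on a C57BL/6J background. Both groups had received the HFCD, a high-fat, high-cholesterol diet, for 16 weeks by the labels, while the study's methods give a longer feeding period. The labels give no age, and there was no group without the diet. The labels number the libraries but do not say in words that each was a separate animal, so p-values measure the spread between these libraries.

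Keratins build the intermediate filaments of epithelial cells, and each filament is an obligate pairing of an acidic type I with a basic type II chain. In simple epithelia such as the lining of the colon, keratin 8 is the leading type II chain and keratins 18, 19 and 20 its type I partners, and their mRNAs are widely used to trace how much epithelium a tissue sample holds. Plakins link the filaments to desmosomes and to the cell cortex.

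The type II genes Krt7 (chr15:101411043-101430313, plus strand) and Krt8 (chr15:101996698-102004482, minus strand) lie in the type II keratin cluster of build GRCm38. Krt18 (chr15:102028180-102032027, plus strand) is a type I gene that lies next to Krt8. The other type I genes, Krt19 (chr11:100140810-100148665), Krt20 (chr11:99428403-99438150) and Krt23 (chr11:99477974-99493137), are on the minus strand of chromosome 11, as is Evpl (chr11:116220559-116238077), and Ppl (chr16:5086291-5132421) is on the minus strand of chromosome 16. A processed pseudogene of Krt8 on chromosome 7 (chr7:23357125-23358069) has no row of its own in the count tables, and how reads shared with it were counted is not given in the sources used here.

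The bases upstream of Krt20 and Krt23 are shown because these neighbouring type I genes stood at opposite ends of the results below, Krt20 with the widest range between libraries and Krt23 with no overlap between the genotypes. Both are RefSeq sequence of GRCm38.p6, read 5′ to 3′ on the minus strand, upstream of every annotated exon, with 250 bases at chr11:99438154-99438403 for Krt20 and 233 bases at chr11:99493138-99493370 for Krt23. Capitals mark the matches to the motifs searched, which were the TATA box (spelled TATAAA), the GC box (GGGCGG) and a core of CDX and posterior HOX sites (TTTATNG).
Krt20: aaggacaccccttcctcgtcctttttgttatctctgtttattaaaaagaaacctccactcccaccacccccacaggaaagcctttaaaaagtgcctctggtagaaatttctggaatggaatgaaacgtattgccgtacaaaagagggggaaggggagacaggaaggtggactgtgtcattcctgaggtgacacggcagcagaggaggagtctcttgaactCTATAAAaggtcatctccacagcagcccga
Krt23: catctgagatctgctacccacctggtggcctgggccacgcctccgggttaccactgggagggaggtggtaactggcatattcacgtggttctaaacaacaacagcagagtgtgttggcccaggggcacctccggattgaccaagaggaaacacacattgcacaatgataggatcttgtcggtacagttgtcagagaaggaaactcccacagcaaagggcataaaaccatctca
Krt20 held the TATA box on its own strand, 29 bases before the RefSeq start, overlapped by the CDX and HOX core on the other strand, and Krt23 held none of the 3 motifs in this window. Over 32851 windows of 250 bases, both strands searched, 12.4% held the TATA box, 32.7% the GC box and 9.81% the CDX and HOX core, so the matches are a description only. The promoter table used had entries for 5 of the 8 genes and none for Krt19, Ppl and Evpl.

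Before the results, the facts of the whole series that touch them are given once. Totals were between 38041832 and 38604680 counts per library, and values below are counts scaled to a common library size by TMM factors (CPM) where a gene is compared between libraries and FPKM, which is scaled to gene length, where genes are compared with each other. Nsd2 lay at 47.8, 59.1 and 68.9 CPM in NSD2fl/fl and at 24.5, 23.1 and 27.5 CPM in NSD2∆IE, with no overlap (log2 fold change -1.23, SE 0.159, adjusted p = 0.302 by edgeR). The 3 NSD2∆IE libraries held 535 to 611 CPM of Xist and 0 counts of the Y-linked gene Kdm5d, whereas the NSD2fl/fl libraries held at most 0.104 CPM of Xist and 46.8 to 57.3 CPM of Kdm5d, although the study's methods name male littermates. Genotype and this sex-linked pattern were fully confounded and cannot be told apart here. Hoxb13, a homeobox gene of the most distal colon, was at 364.9, 0.706 and 340.5 CPM in NSD2fl/fl replicates 1 to 3 and at 310.01, 4.97 and 26.2 CPM in NSD2∆IE replicates 1 to 3. The libraries thus fell apart by Hoxb13 across the genotypes, and the first principal component of all genes (51% of the variance) separated NSD2fl/fl replicates 1 and 3 and NSD2∆IE replicate 1 from the other 3.

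The mRNA pool of these 8 genes was dominated by Krt8 and Krt19. On the FPKM scale, Krt8 ranged from 1873 to 3426 over the 6 libraries and stood 11th of all genes by its mean, and Krt19, the shortest keratin chain, ranged from 1331 to 1884 and stood 24th. Krt20, a keratin of the mature surface colonocytes, ranged from 229 to 1054 FPKM, Krt18 from 196 to 321 FPKM and Krt7, typical of glandular and ductal epithelia, from 63.9 to 123 FPKM. Evpl (3.93 to 9.66 FPKM), Krt23 (2.75 to 5.78 FPKM) and Ppl (1.28 to 2.91 FPKM) made up a far lower tier. The ranges of Krt8 and Krt19 overlapped in level, as did those of Krt20 and Krt18, of Evpl and Krt23, and of Krt23 and Ppl. Within every library, however, Krt8 was above Krt19, Krt20 above Krt18 and Krt23 above Ppl, while Evpl and Krt23 changed order. Krt7 lay below every value of Krt18 and above every value of the low tier. The 8 genes together took 0.628%, 1.16% and 0.796% of the reads counted in the controls, by replicate number, and 0.788%, 0.746% and 0.741% in NSD2∆IE, so that the highest and the lowest share were both in NSD2fl/fl.

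To examine whether loss of NSD2 in the epithelium went with a change in these transcripts, each gene was compared between the genotypes. None of the 8 had an adjusted p under 0.05 by edgeR or by DESeq2 (over all genes tested, 0.0306% had one by edgeR and 2.79% by DESeq2), and Krt23 was the 1 gene of the 8 with an unadjusted edgeR p under 0.05 (11.1% of all genes). Krt23 was also the 1 gene past the threshold of the study in the upward direction, meaning an unadjusted p below 0.05 and a log2 fold change beyond 0.322 (8.05% of all genes), and none passed it downward (2.21% of all genes). The same gene was the 1 of 8 whose groups did not overlap, against 18.7% of all genes. The fitted log2 fold change was below 0 for 6 of the 8 genes, against 56.3% of all genes, with a median of -0.31 over the 8 and of -0.041 over all genes. Without NSD2fl/fl replicate 2 these medians were -0.047 and -0.028, so the gap between the 8 and all genes rested largely on that library. The gap remained with libraries scaled to epithelial markers (-0.052 and 0.16) and with library totals alone (-0.16 and 0.086). Without NSD2fl/fl replicate 1 the medians were -0.45 and -0.039. In bulk tissue, fewer epithelial cells and less of an mRNA per cell cannot be told apart.

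**Figure D1:**
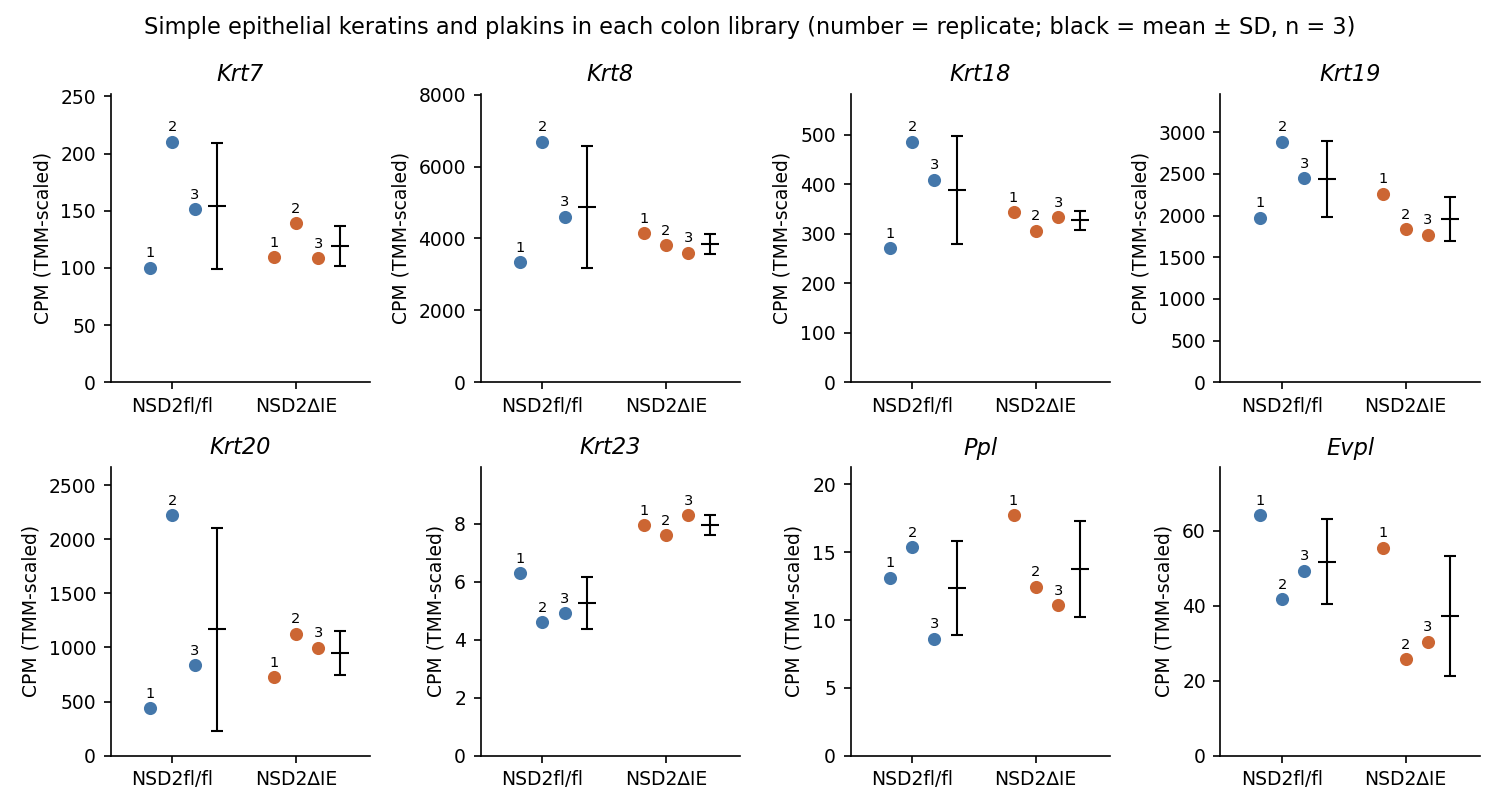
Level of each of the 8 genes in every library, in CPM scaled by TMM factors on linear axes that start at 0. Points are libraries numbered by replicate, blue for NSD2fl/fl and orange for NSD2∆IE, and black marks are the mean ± SD (n = 3). NSD2fl/fl replicate 2 is the highest point of Krt7, Krt8, Krt18, Krt19 and Krt20, and the groups stay apart for Krt23 alone.

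Among the type II chains, Krt8, the backbone of the simple epithelial filament, was at 3339.7, 6695 and 4603 CPM in NSD2fl/fl replicates 1 to 3 and at 4140.5, 3807 and 3604 CPM in NSD2∆IE replicates 1 to 3. The NSD2∆IE values thus lay inside the NSD2fl/fl range, and the spread was far wider in the controls. The means were 4879 ± 1695 and 3851 ± 271 CPM (SD, n = 3 per group), and on the log2 scale NSD2∆IE lay at -0.34 relative to the controls (SE 0.296, adjusted p = 0.708 by edgeR). Krt7 was at 100.1, 210.5 and 151 CPM in NSD2fl/fl and at 109, 139 and 108 CPM in NSD2∆IE. Its log2 fold change was -0.37 (SE 0.269, adjusted p = 0.651), and here too every NSD2∆IE value fell within the range of the controls.

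Among the type I chains, Krt18 was at 271, 486 and 409 CPM in NSD2fl/fl and at 343, 306 and 333 CPM in NSD2∆IE, or -0.25 on the log2 scale (SE 0.221, adjusted p = 0.714 by edgeR). Krt19 was at 1973, 2889 and 2448 CPM in NSD2fl/fl and at 2264, 1836 and 1771 CPM in NSD2∆IE. For Krt19, 2 of the 3 NSD2∆IE libraries lay below all controls, and the log2 fold change was -0.32 (SE 0.221, adjusted p = 0.641). Krt20 was at 441, 2222 and 835 CPM in NSD2fl/fl and at 723, 1128 and 996 CPM in NSD2∆IE. Its lowest and highest values, 5.04-fold apart, were both controls, which left a log2 fold change of -0.30 with an SE of 0.558 (adjusted p = 0.862). Without NSD2fl/fl replicate 2 the log2 fold change of Krt20 was 0.58, and with all 6 libraries it was 0.031 with epithelial scaling, 0.14 with limma-voom, 0.12 on either log2 FPKM scale and 0.0037 with the replicate number as a block, so neither direction held across libraries and models.

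Krt23, a type I keratin of low level in this tissue, went the other way. Its counts were 242, 163 and 175 in the control libraries and 315, 301 and 344 in the NSD2∆IE libraries, which corresponds to 6.28, 4.61 and 4.91 CPM against 7.95, 7.59 and 8.29 CPM. All 3 NSD2∆IE libraries were above all 3 controls, with means of 5.27 ± 0.894 and 7.94 ± 0.348 CPM (SD, n = 3 per group) and a ratio of 1.51. This amounts to 0.59 on the log2 scale (SE 0.186, unadjusted p = 0.0159, adjusted p = 0.337 by edgeR), which fails the correction over all genes. By DESeq2 the adjusted p was 0.1, and without NSD2∆IE replicate 3 the unadjusted edgeR p was 0.057, which left no gene of the 8 past the threshold of the study (4.06% of all genes upward without that library).

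Neither plakin passed a threshold with all libraries and no block. Evpl (envoplakin) was at 64.2, 41.7 and 49.3 CPM in NSD2fl/fl and at 55.5, 25.7 and 30.3 CPM in NSD2∆IE, with 2 NSD2∆IE libraries below all controls and a fitted log2 change of -0.48 (SE 0.312, edgeR adjusted p = 0.622). Ppl (periplakin), which pairs with envoplakin in the cornified envelope of stratified epithelia, was at 13.1, 15.4 and 8.62 CPM in NSD2fl/fl and at 17.7, 12.5 and 11.1 CPM in NSD2∆IE. Its log2 fold change was 0.15 (SE 0.272, adjusted p = 0.853), and the groups overlapped. Without NSD2∆IE replicate 1 the log2 fold change of Evpl was -0.88 (unadjusted p = 0.00832, adjusted p = 0.288 by edgeR) and past the threshold of the study (3.72% of all genes downward without that library), that of Ppl was -0.064, and 3 of the 8 genes did not overlap (32% of all genes). Without NSD2fl/fl replicate 1, Krt7 (-0.61, unadjusted p = 0.0238) and Krt18 (-0.45, unadjusted p = 0.0203 by edgeR) passed that threshold downward (4.48% of all genes without that library), and 5 of the 8 genes had groups that did not overlap (35.9% of all genes).

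Because both chain types are needed in equal measure for a filament, the mRNA sums of the 2 types were set against each other in each library. These sums do not measure the amounts of the protein chains. The type I sum (Krt18, Krt19, Krt20 and Krt23) was 1840.1, 3262 and 2294 FPKM in NSD2fl/fl and 2283, 2155 and 2166 FPKM in NSD2∆IE. The type II sum (Krt7 and Krt8) was 1937, 3549 and 2475 FPKM in NSD2fl/fl and 2429.9, 2256 and 2230.3 FPKM in NSD2∆IE. Both sums moved together from library to library, and their ratio kept within a narrow band, at 0.950, 0.919 and 0.927 in NSD2fl/fl and 0.940, 0.955 and 0.971 in NSD2∆IE. The means of this ratio were 0.932 ± 0.0161 and 0.955 ± 0.0157 (SD, n = 3 per group), a log2 difference of 0.036 with p = 0.2 by a two-sided exact permutation test, in which 3 against 3 libraries cannot go below 0.1. The single pair Krt8 and Krt18 was far from equal, with Krt8 between 8.39 and 10.7 times the FPKM of Krt18, and the log2 ratio of Krt18 to Krt8 differed by 0.077 between the genotypes (p = 0.5, two-sided exact permutation test).

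**Figure D2:**
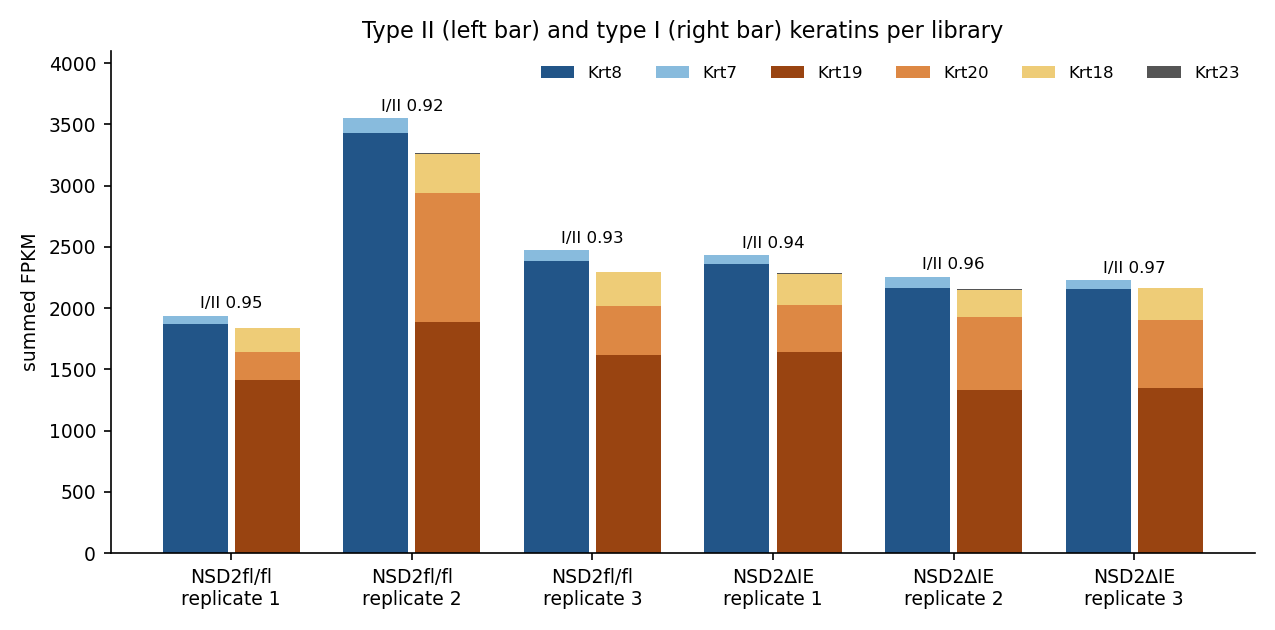
Summed FPKM of the type II keratins (left bar of each pair, Krt8 and Krt7) and the type I keratins (right bar, Krt19, Krt20, Krt18 and Krt23) in each library, on a linear axis from 0, with the ratio of type I to type II above each pair. The sums differ between libraries while the ratio stays between 0.919 and 0.971, and the share of Krt20 in the type I bar is widest in NSD2fl/fl replicate 2.

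The share of Krt20 in the type I sum differed most between libraries among its larger parts. Krt20 made up 12.4%, 32.3% and 17.5% of it in NSD2fl/fl replicates 1 to 3 and 16.7%, 27.6% and 25.5% in NSD2∆IE replicates 1 to 3, while Krt19 made up 76.7%, 57.8% and 70.5% and then 72.0%, 61.8% and 62.4%. Libraries with a larger share of Krt20 had a smaller share of Krt19, as parts of 1 sum must tend to, whereas Krt18 stayed between 9.84% and 11.9% and Krt23 between 0.0842% and 0.267%. In the type II sum, Krt8 held between 96.0% and 97.1%.

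To set the keratins against the amount of epithelium in each sample, they were compared with a list of 14 other epithelial genes. Of these 14, 13 had a fitted log2 fold change below 0 (56.3% of all genes), with a median of -0.26. The threshold of the study was passed downward by 1 (2.21% of all genes), Elf3, an epithelial transcription factor (-0.60, SE 0.142, unadjusted p = 0.00438, adjusted p = 0.302 by edgeR). Groups did not overlap for 5 of the 14, all lower in NSD2∆IE (18.7% of all genes, either direction). Among them, Epcam, the epithelial adhesion molecule, was at 1431, 1874 and 1459 CPM in NSD2fl/fl and at 1388, 1344 and 1233 CPM in NSD2∆IE (log2 fold change -0.26, SE 0.183, adjusted p = 0.639). The mean log2 CPM of the 8 genes minus that of the 14 was -1.5 ± 0.0933 in NSD2fl/fl and -1.40 ± 0.11 in NSD2∆IE (SD, n = 3 per group), a difference of 0.099 (p = 0.4, two-sided exact permutation test, smallest possible p 0.1). This mean joins genes that went both ways, with Krt23 at 0.81 and Ppl at 0.38 relative to the 14 and Evpl at -0.32 and Krt7 at -0.11, so it says little of any single gene.

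Scaling every library to these 14 genes in place of TMM shifted the median over all genes to 0.16 and the median over the 8 to -0.052, both in log2 units. Krt7 (-0.13), Krt8 (-0.091), Krt18 (-0.012), Krt19 (-0.093) and Krt20 (0.031) then had log2 fold changes smaller in size than their SEs, which ran from 0.196 to 0.419. With TMM, Krt20 was already within its SE (-0.30, SE 0.558). Krt23 was without overlap between the groups here too (18.3% of all genes), at 0.77 (SE 0.301, unadjusted p = 0.0312, adjusted p = 0.409 by edgeR), and was again the 1 gene of the 8 past the threshold of the study upward (10.1% of all genes under this scaling). Ppl was at 0.38 (SE 0.276) and Evpl at -0.30 (SE 0.352).

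**Figure D3:**
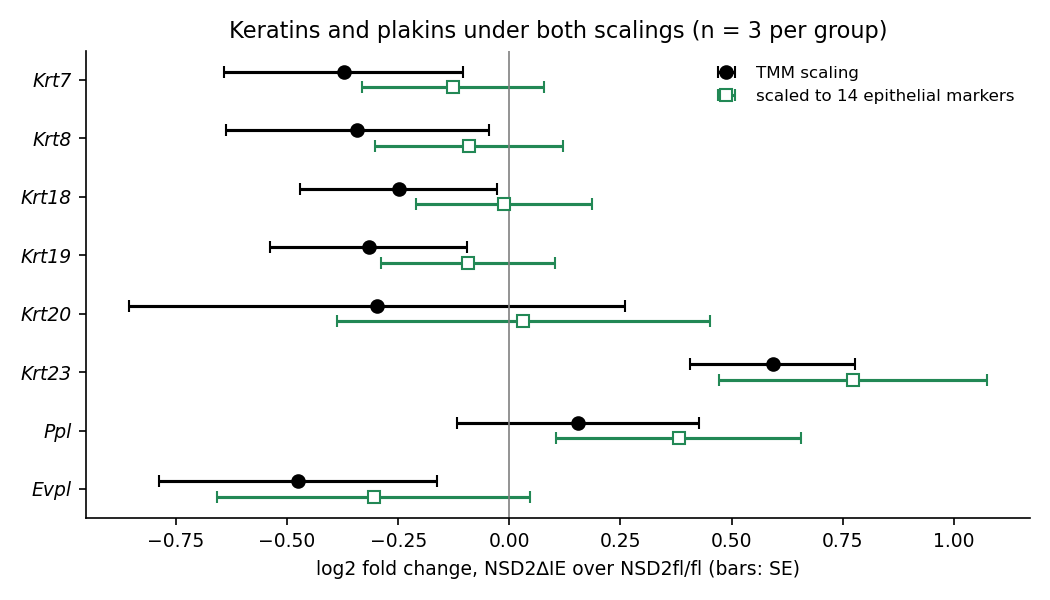
Log2 fold change of NSD2∆IE over NSD2fl/fl for each of the 8 genes (bars are the SE, n = 3 per group), with TMM scaling (black circles) and with libraries scaled to 14 epithelial markers (open green squares). Under the second scaling Krt7, Krt8, Krt18, Krt19 and Krt20 lie within 1 SE of 0, as Krt20 also does under the first. Krt23 lies to the right of 0 under both, at 0.59 and 0.77.

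Markers of muscle and of nerve in the colon wall were also compared in these libraries, and none had an adjusted p under 0.05. All 9 smooth muscle markers had fitted log2 fold changes above 0 (median 1.22), and their summed level was 1561 to 4392 CPM in NSD2fl/fl and 5456 to 11739 CPM in NSD2∆IE. Of these, 7 passed the threshold of the study upward (8.05% of all genes), while Des (unadjusted p = 0.0735) and Synm (unadjusted p = 0.0868 by edgeR) did not. Lmod1, which nucleates actin filaments in smooth muscle, was at 1.13 (SE 0.309, unadjusted p = 0.00854, adjusted p = 0.312 by edgeR). All 8 markers of enteric neurons and glia passed it upward (median 1.01), with sums of 42.2 to 82.3 CPM in NSD2fl/fl and 109 to 137 CPM in NSD2∆IE. NSD2fl/fl replicate 2, the library with the most keratin, held the least of both lists. NSD2fl/fl replicate 1, the library with the lowest keratin share, nevertheless held less of both lists than every NSD2∆IE library. The part of tissue composition in the differences of the 8 genes was not tested.

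Mesothelial cells, which also carry simple keratins, were represented at a low level. The 6 mesothelial markers summed to 2.08 to 11.2 CPM in NSD2fl/fl, the highest in replicate 2, and to 3.28 to 3.58 CPM in NSD2∆IE. All 4 tested members were below 0 in fitted log2 fold change (56.3% of all genes) and none was past the threshold of the study. Stratified squamous epithelium, which carries plakins at a high level, was nearly absent by its markers. Its 9 genes summed to 3 to 4.46 CPM, with 2 of them tested. Trp63, Krt5, Krt4, Krt1, Dsg3 and Krtdap had at most 7 counts in any library, Krt13 at most 27, Krt14 at most 33 and Krt10 at most 112.

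The partners of the keratin filament at the cell border were examined next. All 7 desmosome genes had fitted log2 fold changes below 0, between -0.42 and -0.14 (median -0.37), against 56.3% of all genes below 0. None passed the threshold of the study. Their mean log2 CPM was 7.50, 8.08 and 7.60 in NSD2fl/fl replicates 1 to 3 and 7.44, 7.57 and 7.35 in NSD2∆IE replicates 1 to 3. The groups thus overlapped, and NSD2fl/fl replicate 2 was the highest, as for the keratins. Pkp3 (plakophilin 3, a desmosomal plaque protein) was at -0.37 (SE 0.163, unadjusted p = 0.0569, adjusted p = 0.46 by edgeR) and Dsp (desmoplakin, which anchors keratins in the desmosome) at -0.42 (SE 0.208, adjusted p = 0.515). Of 11 genes for hemidesmosomes and other filament linkers, 8 were below 0 (median -0.18, against 56.3% of all genes below 0). The threshold of the study was passed downward by 2 of the 11 (2.21% of all genes). Itgb4, the integrin subunit that binds keratins through plectin at the basement membrane, passed the threshold of the study at -0.46 (SE 0.155, unadjusted p = 0.0208, adjusted p = 0.361 by edgeR). Its partner subunit Itga6, named after its values were seen, passed it as well, at -0.46 (SE 0.183, unadjusted p = 0.0396 by edgeR). Pof1b, an actin- and keratin-associated epithelial protein, was at -0.27 (SE 0.0981, unadjusted p = 0.0291) without overlap but under the fold of that threshold.

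Of 11 other intermediate filament genes, 3 were nuclear lamins that epithelial cells carry too. Of the 11, 9 were above 0 (median 0.76), whereas 56.3% of all genes were below 0. Groups did not overlap for 7 (18.7% of all genes, either direction). The threshold of the study was passed upward by 5 (8.05% of all genes), all of them filaments of neurons, glia or mesenchyme. The lamins Lmna (0.029), Lmnb1 (-0.087) and Lmnb2 (-0.25) did not pass it. Gfap, the filament of enteric glia, was at 1.01 (SE 0.306, unadjusted p = 0.0137, adjusted p = 0.326 by edgeR) and Nefm, a neurofilament chain, at 0.76 (SE 0.239, unadjusted p = 0.016). The other three were Nefl (1.07), Prph (0.95) and the mesenchymal filament Vim (0.36), named after their values were seen. Of the 11, Des and Synm are also in the smooth muscle list and Prph in that of enteric neurons and glia. Of 9 genes of the cornified envelope, the partners of Ppl and Evpl in skin, 6 were listed and 4 tested. All 4 were below 0 (56.3% of all genes), with a median of -0.82. Sprr1a was at -2.18 (SE 1.03, unadjusted p = 0.0725 by edgeR) and Scel at -1.42 (SE 1.01), and the groups overlapped for both. Sprr1a was highest in NSD2fl/fl replicate 2, at 46.9 CPM. Tgm3 (-0.22, SE 1.98) and Tgm1 (-0.017, SE 0.464) were within their SEs. The transglutaminase Tgm3, named after its values were seen, ran from 94 to 56141 counts. It was at 1129.5, 592 and 1416 CPM in NSD2fl/fl replicates 1 and 3 and NSD2∆IE replicate 1, the libraries of high Hoxb13. In NSD2fl/fl replicate 2 and NSD2∆IE replicates 2 and 3 it was at 2.66, 11.2 and 51.3 CPM. None of the 4 passed the threshold.

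**Figure D4:**
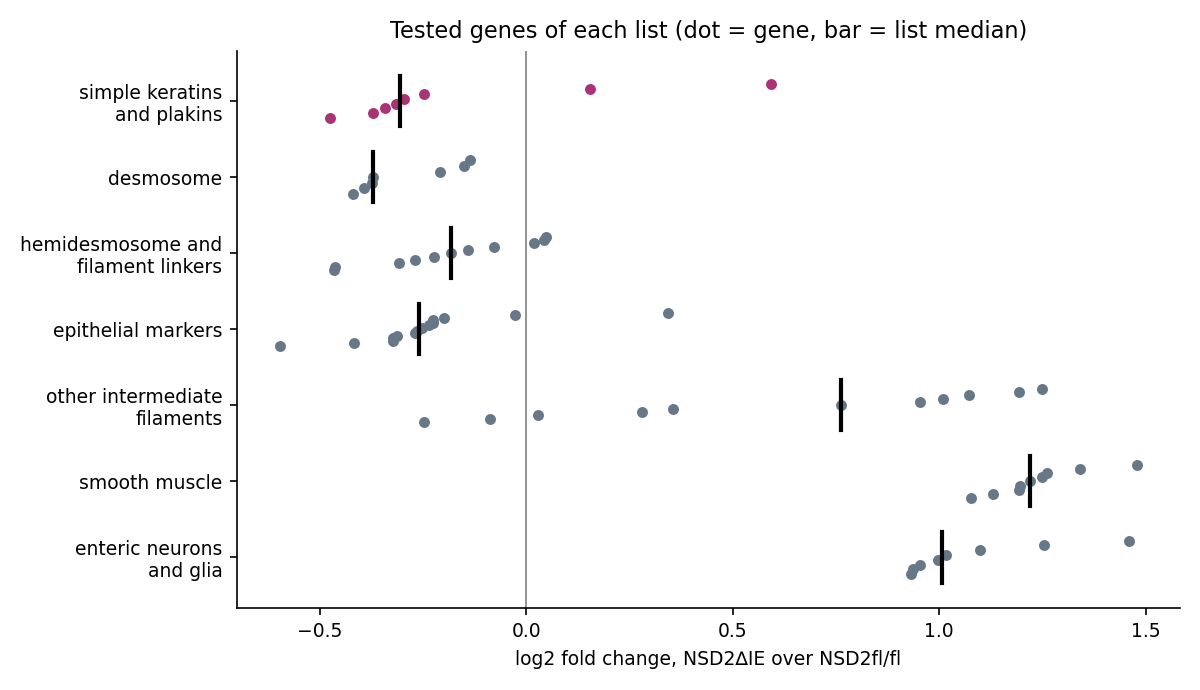
Fitted log2 fold change of NSD2∆IE over NSD2fl/fl for the tested genes of 7 lists, with 1 dot per gene and a vertical bar at the median of each list. The simple keratins and plakins (median -0.31), desmosome genes (-0.37) and epithelial markers (-0.26) lie mostly or wholly left of 0, while other intermediate filaments (0.76), smooth muscle (1.22) and enteric neurons and glia (1.01) lie mostly or wholly to the right. Over all genes tested, 56.3% were below 0.

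Beside genotype, the split of the libraries by Hoxb13 was examined, since it cut across the groups. Hoxb13 is a marker of position along the colon, the labels do not say which segment was taken, and the 3 libraries below 100 CPM were grouped here by that value and are not groups of the study. Krt20 was at 996, 1128 and 2222 CPM in those 3 libraries and at 441, 723 and 835 CPM in the other 3. Evpl was at 25.7, 30.3 and 41.7 CPM against 49.3, 55.5 and 64.2 CPM. These were the 2 of the 8 genes without overlap along this split, Krt20 higher and Evpl lower where Hoxb13 was low, against 22.4% of all genes in either direction, so the count was close to the background share.

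In a model with genotype and log2 CPM of Hoxb13 together, the slope of Krt20 was -0.18 log2 units per doubling of Hoxb13 (adjusted p = 0.0285 by edgeR), the 1 slope of the 8 with an adjusted p under 0.05 (8.14% of all genes, again near the share of 1 in 8). This slope was -0.11 (adjusted p = 0.824) without NSD2fl/fl replicate 2, and its adjusted p was 0.0714 without NSD2∆IE replicate 2 and 0.0532 without NSD2∆IE replicate 3. Krt7 had a slope of -0.077 (adjusted p = 0.117 by edgeR), and without single libraries its adjusted p ran from 0.0316 (without NSD2fl/fl replicate 3) to 0.934 (without NSD2fl/fl replicate 2, slope -0.056). Evpl had a slope of 0.087 (adjusted p = 0.151 by edgeR), which ran from 0.056 without NSD2∆IE replicate 1 (adjusted p = 0.277) to 0.19 without NSD2fl/fl replicate 2 (adjusted p = 0.161), and its adjusted p was lowest, 0.0497, without NSD2fl/fl replicate 3. The slopes were examined after the values had been seen. With Hoxb13 in the model, the genotype log2 fold change of Krt20 was -0.11 (SE 0.258) and that of Krt23 was 0.61 (SE 0.178, unadjusted p = 0.0111, adjusted p = 0.157 by edgeR).

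Within each side of that split, where 1 side held 2 controls and 1 NSD2∆IE library and the other 1 control and 2 NSD2∆IE libraries, the genotype difference could be given as a value only. With high Hoxb13 the log2 differences of Krt8, Krt18 and Krt19 were 0.079, 0.043 and 0.043, and that of Krt20 was 0.25. With low Hoxb13 they were -0.85, -0.61 and -0.68, and -1.07 for Krt20, where the single control was NSD2fl/fl replicate 2. Krt23 was above 0 on both sides, at 0.51 with high and 0.78 with low Hoxb13. Krt7 (-0.17 and -0.78) and Evpl (-0.019 and -0.58) were below 0 on both sides, in the same order. Ppl was at 0.74 and -0.39 and Epcam at -0.058 and -0.54.

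**Figure D5:**
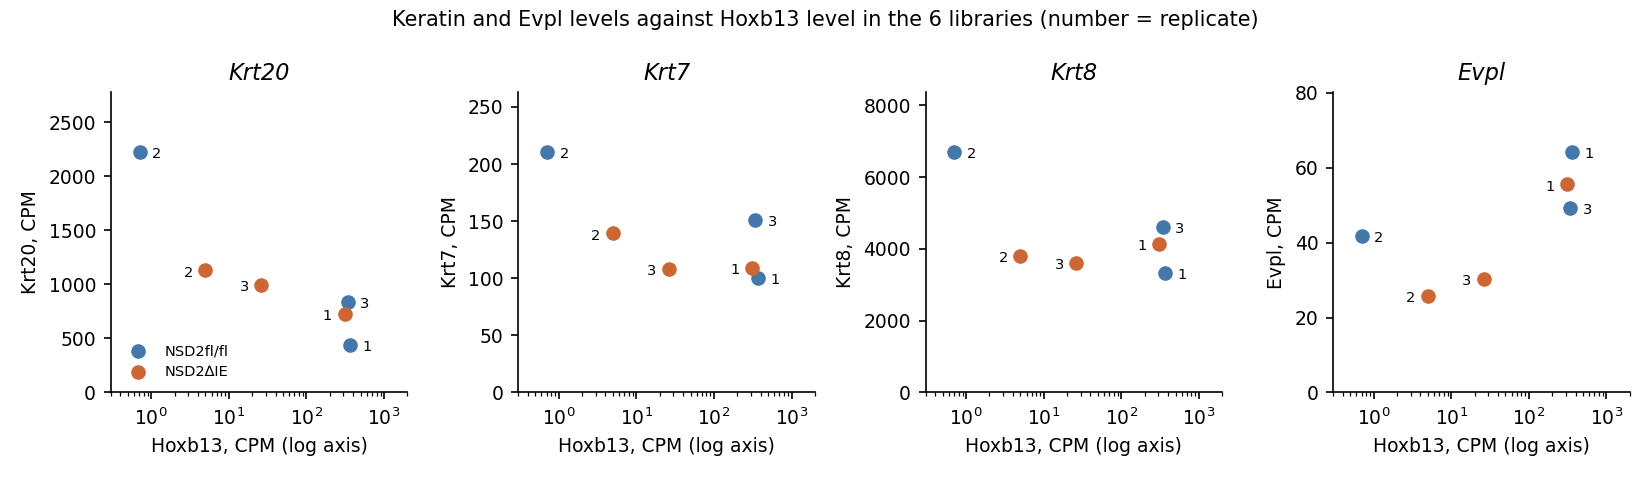
Level of Krt20, Krt7, Krt8 and Evpl (CPM, linear axis from 0) against the level of Hoxb13 (CPM, log axis) in the 6 libraries, numbered by replicate, blue for NSD2fl/fl and orange for NSD2∆IE. Krt20 lies between 996 and 2222 CPM in the 3 libraries with low Hoxb13 and between 441 and 835 CPM in the other 3, and Evpl is lower in the former.

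Lastly, the genes whose pattern over the 6 libraries was nearest to these 8 were sought among 10562 genes of moderate or high level, by the root mean square difference of log2 CPM centred on each gene's mean. Nearest to the mean profile of the 8, which itself had a root mean square of 0.201, were Map2k3 (0.0518), Efhd2 (0.0547), Klc4, Sh3tc1, the epithelial claudin Cldn7 (0.0606), Ddi2, Rdh10 and Ell (0.0667). Krt8 was matched most closely by the actin crosslinker Actn4 (0.0224) and by Lmo7 (0.0571), Krt7 by Tspan8 (0.0665) and Igsf5, Krt18 by Yars2 and Pin4, and Krt19 by Gsdmd (0.0548), the pore-forming gasdermin D, and Tmem125. Krt23 was matched by Selenon (0.037) and Gstt1 (0.038), Ppl by Cobl (0.113) and Noct, and Evpl by Srgap1 (0.0828) and Tnfaip3 (0.0848). Krt20 was nearest to Fam3b (0.172) and Rhod (0.174), differences that stand beside a root mean square of 0.705 for its own profile. Cldn7 and Tspan8 are also among the 14 epithelial markers.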

How the data were processed

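RNA-seq of 6 mouse colon samples was analysed. For each library the authors deposited 2 tables by gene symbol, one of whole-number counts and one of FPKM. The submitters' processing notes name fastp, HISAT2, HTSeq, R 3.2.0 and build mm10; annotation, strand setting and filters are not given in the sources used here. For 17863 genes with reads in every library, the length implied by count and FPKM was whole to within 0.0638 bases, so FPKM was made from the same counts. Libraries were grouped by their titles and none was left out. No pair of libraries was as alike as a repeated deposit (chi-square per degree of freedom of at least 35.5 over genes with 20 or more counts in a pair).

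The test was the quasi-likelihood test of edgeR 4.0.16 (R 4.3.3, filterByExpr, TMM factors, two-sided, no covariate), with Benjamini-Hochberg adjustment over 16347 genes and SE taken as the log2 fold change over the square root of F. The second threshold was that of the study, an unadjusted p under 0.05 and a log2 fold change beyond 0.322. The common dispersion was 0.0967, so the spread between libraries, not depth, limited precision. Ratios were tested by exact permutation (scipy 1.17.1). Log2 CPM used a prior count of 2. Gene positions are from a GENCODE annotation of GRCm38, the same build as mm10, and upstream sequences from RefSeq. The fit was tested on simulated data first. Of 98 genes given a 2-fold change, 21 had an adjusted p under 0.05, and of 97 given a 4-fold change 71 did, beside 7 false calls. An adjusted p above 0.05 is thus no sign that a gene did not change.

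The 8 genes, the 18 other lists, the tests and the alternatives were chosen with earlier results of these data known. All 8 genes were named. Of other lists, the genes with the smallest p in each direction (at most 2) could be named, with Nsd2, Hoxb13, Epcam and sex-linked genes as checks, other keratins reaching 1 CPM, and the genes most alike in pattern with a mean log2 CPM of at least 3. Alternatives were other scalings, DESeq2 1.42.0, limma-voom (limma 3.58.1), no filter, log2(FPKM + 1) and log2(FPKM + 0.1) with limma, a replicate block, Hoxb13 as covariate, a fold of 1.5 and leaving out each library. The slopes on Hoxb13, with all libraries and without each, were added after seeing the data.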

Additional observations from a re-analysis of the deposited data

How the results depend on the processing

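Under 17 alternatives, no gene of the 8 had an adjusted p under 0.05, and the log2 fold change kept its sign for Krt7 (-0.61 to -0.077), Krt8 (-0.56 to -0.042), Krt18 (-0.45 to -0.012), Krt19 (-0.45 to -0.093), Krt23 (0.50 to 0.77) and Evpl (-0.88 to -0.27). Krt23 kept an unadjusted p under 0.05 in 16 of the 17, with adjusted p from 0.1 to 0.99. Krt20 changed sign, to 0.031 with epithelial scaling, 0.14 with limma-voom, 0.12 with log2(FPKM + 1), 0.12 with log2(FPKM + 0.1) and 0.0037 with the replicate block, and ran from -0.69 to 0.58 when single libraries were left out, 0.58 without NSD2fl/fl replicate 2. Ppl changed sign to -0.044 without NSD2fl/fl replicate 3 and -0.064 without NSD2∆IE replicate 1, in a range of -0.064 to 0.34 without single libraries. The median of the 8 moved to -0.052 with epithelial scaling and ran from -0.45 to -0.047 without single libraries, where -0.047 was without NSD2fl/fl replicate 2. Without single libraries, between 0 and 2 of the 8 were lower past the threshold of the study (2 without NSD2fl/fl replicate 1, against 4.48% of all genes, and 1 without NSD2∆IE replicate 1, against 3.72%), between 0 and 1 were higher (0 without NSD2∆IE replicate 3, against 4.06%), and between 1 and 5 did not overlap (5 without NSD2fl/fl replicate 1, against 35.9%, and 3 without NSD2∆IE replicate 1, against 32%). The cause of these moves was not tested.

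Library totals alone gave a median of 0.086 over all genes and -0.16 over the 8. The log2 difference of the type I to type II ratio ran from 0.024 to 0.049 and that of the 8 genes against the epithelial markers from 0.039 to 0.15 over their alternatives. The labels do not say whether the replicate numbers pair the libraries, and the values did not settle it. Deviations from the group means correlated at 0.501, 0.643 and -0.166 for the 3 numbers, and 4 of the 6 libraries correlated best with their own number. With the replicate block, 1 of the 8 was lower past the threshold of the study, Evpl at -0.53 (unadjusted p = 0.00917, adjusted p = 0.309 by edgeR, where 602 of 16347 genes were lower), and the exact permutation p within replicate pairs was 0.5 for the type ratio and 0.75 for the comparison with epithelial markers, where 0.25 is the smallest possible. The study threshold called 361 genes lower and 1316 higher in all, against 70 and 1658 with epithelial scaling.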

Other observations

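Other keratin genes were a small part of the keratin pool. Of 32 further keratin symbols listed, 8 were tested and 7 reached 1 CPM in some library, namely Krt10, Krt17, Krt36, Krt80, Krt84, Krt87 and Krt222, none above 9.81 CPM. Krt80, a type II keratin, was at 2.13, 1.5 and 1.35 CPM in NSD2fl/fl and at 2.30, 2.78 and 4.48 CPM in NSD2∆IE, and was the 1 of the 8 tested past the threshold of the study (log2 fold change 0.94, SE 0.349, unadjusted p = 0.0318, adjusted p = 0.406 by edgeR, against 8.05% of all genes upward). Krt17, a keratin of basal and injured epithelium, was at 2.57, 0.254 and 5.73 CPM in NSD2fl/fl and at 5.83, 5.02 and 9.81 CPM in NSD2∆IE (log2 fold change 1.27, SE 0.872, adjusted p = 0.638). Krt36, a hair-type keratin, was at 1.04, 2.37 and 3.23 CPM in NSD2fl/fl and at 1.36, 0.177 and 0.265 CPM in NSD2∆IE (log2 fold change -1.88, SE 0.825, adjusted p = 0.463).

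Lists for cell types inside the epithelium gave no gene past the threshold of the study. Of 9 colonocyte genes 6 were below 0 (median -0.095), of 8 goblet cell genes 5 (median -0.079) and of 8 crypt genes 4 (median -0.12), against 56.3% of all genes. Outside the epithelium, 9 immune genes had a median of -0.095 and 6 endothelial genes one of 0.11, with none past that threshold. The posterior Hox genes, 7 in number, had a median of -0.38 and none past it. Of 6 fibroblast genes Lum (1.08) and Dcn (0.43) passed it upward, and of 5 tested adipocyte genes Fabp4 (1.11) and Cfd (3.49) did, against 8.05% of all genes. The 5 sex-linked genes alone, of all genes tested, had an adjusted p under 0.05 by edgeR.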
